A study of Mus musculus with 29 samples.

Results

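The 508 sites described here are the places in the mouse genome where Atoh1, Pou4f3 and Gfi1 were all found together in the same cell line. They were chosen by measured peak positions: each retained peak of the 3 ChIP-seq lists of the iGPA line was given a window of 300 bp around its summit, windows that shared at least 1 bp were joined, and the sites with a peak of each factor were kept. This left 508 of the 42185 joined sites. They made up 16.9% of the 3003 sites with Gfi1, 1.96% of the 25931 with Atoh1, 2.71% of the 18725 with Pou4f3 and 12.8% of the 3955 with both Atoh1 and Pou4f3. Since the peaks of iGPA chose the sites, their presence, height and nearness in iGPA are given as descriptions, without a test. Peaks in one place were read from a population of cells, so binding together on one DNA molecule and binding in different cells cannot be told apart.

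The lines were mouse embryonic stem cells of the A2loxCre parent, in which doxycycline turns on a single inserted cassette with a Venus reporter. iAtoh1 and iPou4f3 carried 1 factor. iG+A (Gfi1 and Atoh1), iP+A (Pou4f3 and Atoh1) and iG+P (Gfi1 and Pou4f3) carried a pair, and iGPA carried Gfi1, Pou4f3 and Atoh1. Embryoid bodies received 2 µg/ml doxycycline for 48 h and were harvested at day 6. Atoh1 was pulled down by a FLAG tag, Pou4f3 by a MYC tag and Gfi1 by an antibody to the protein itself, so the 3 factors were not read by the same reagent. Of the 29 libraries, 17 were ChIP and 12 input, with 2 libraries per ChIP group but only 1 for Gfi1, which was profiled in iGPA alone. The 9 peak lists were made on merged libraries, apart from that of Gfi1, which had 1 library. They therefore hold no replicate spread, and the read depth of a peak is unknown. The authors describe calling against merged inputs, by which the 3 lists of iGPA share inputs, as do both lists of iP+A. A list without a peak at a site shows only that none passed the calling threshold there. All peak heights below are the fold enrichment over the local background that MACS gave in the deposited lists, and heights of different antibodies or lines are set side by side without a test.

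Hair cells are the sensory receptors of the inner ear. Atoh1, a basic helix-loop-helix protein, is needed for them to form and binds E-boxes as a dimer with E proteins. Pou4f3, a POU-homeodomain protein that binds AT-rich elements, and Gfi1, a zinc-finger repressor, are needed for hair cells to mature and survive. Atoh1 also drives neuronal fates, where hair cell genes stay off. Gfi1 can reach DNA through its own element or be carried to it by other proteins, and it recruits histone-modifying complexes such as Lsd1-CoREST.

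To show the kinds of site that the results turn on, 11 members are printed as 150 bases of the plus strand (NCBIM37, the mm9 assembly), centred on the mean of the 3 summits. Capitals mark 2 E-box cores known for Atoh1, of which one is CAGCTG on either strand and the other CAGATG, which appears on the opposite strand as its reverse complement. They also mark the Pou4f element ATAATTAAT with at most 1 mismatch and the Gfi1 element, written as AATCACAGC or, with another base, as AATCACTGC. All were searched on both strands. The Gfi1 element AATCACAGC can overlap a CAGCTG core, and capitals then run together.

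The first 3 are strong sites that Pou4f3 occupied also in lines without Atoh1. They lie in an intron of Ccl1 (chr11:82109025-82109174), in intergenic DNA upstream of Prok2 (chr6:99831691-99831840) and in an intron of Cntnap2 (chr6:46401386-46401535).
Ccl1 intron: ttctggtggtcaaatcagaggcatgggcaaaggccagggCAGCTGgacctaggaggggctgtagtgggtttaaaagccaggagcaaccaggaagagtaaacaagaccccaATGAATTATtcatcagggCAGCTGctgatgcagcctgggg
Prok2 upstream: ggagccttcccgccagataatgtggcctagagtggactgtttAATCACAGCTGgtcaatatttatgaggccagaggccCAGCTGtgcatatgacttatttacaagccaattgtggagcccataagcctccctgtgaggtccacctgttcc
Cntnap2 intron: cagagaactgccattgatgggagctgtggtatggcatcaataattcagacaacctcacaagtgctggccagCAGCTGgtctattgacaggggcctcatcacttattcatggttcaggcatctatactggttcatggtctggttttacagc
At the Ccl1 site, counting from the first printed base, the summits fell at base 17 for Gfi1 and 94 for Atoh1. That of Pou4f3 fell at base 116, within the Pou4f element that begins at base 111. At the Cntnap2 site the summits of Pou4f3 (base 74) and Atoh1 (base 75) lay on the CAGCTG that begins at base 72, and that of Gfi1 (base 78) just beyond it.

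A site that Atoh1 occupied in lines without Pou4f3 is the intergenic one whose nearest protein-coding start is that of Dll1, 120216 bp away (chr17:15385063-15385212). The sites near Barhl1 (chr2:28795199-28795348) and on chromosome 1 in the Nuf2 region (chr1:170990889-170991038) had peaks in iP+A but in no line that lacked either Atoh1 or Pou4f3.
Dll1 distal: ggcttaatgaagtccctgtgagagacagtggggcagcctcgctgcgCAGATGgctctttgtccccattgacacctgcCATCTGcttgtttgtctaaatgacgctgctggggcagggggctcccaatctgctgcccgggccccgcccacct
Barhl1 upstream: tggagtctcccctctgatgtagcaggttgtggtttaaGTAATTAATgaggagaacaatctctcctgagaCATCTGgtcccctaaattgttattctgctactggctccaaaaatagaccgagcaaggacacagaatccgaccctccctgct
Nuf2 region: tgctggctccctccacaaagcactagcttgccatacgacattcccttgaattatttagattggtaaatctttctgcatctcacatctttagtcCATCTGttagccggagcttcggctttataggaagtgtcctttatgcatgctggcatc
In the Dll1 sequence the Atoh1 summit was at base 80, within the core at base 78, and those of Gfi1 (base 75) and Pou4f3 (base 72) lay just before it. In the Barhl1 sequence Atoh1 peaked at base 68, at the edge of the core at base 70, Pou4f3 at base 44, within the element at base 38, and Gfi1 at base 115, away from both.

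The next 2 are promoter sites, 229 bp upstream of a start of Nhlh1 (chr1:173987858-173988007) and 145 bp upstream of a start of Tnks1bp1 (chr2:84887959-84888108).
Nhlh1 promoter: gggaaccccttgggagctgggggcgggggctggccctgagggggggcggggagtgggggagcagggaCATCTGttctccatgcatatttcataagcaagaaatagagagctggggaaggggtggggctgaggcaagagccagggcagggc
Tnks1bp1 promoter: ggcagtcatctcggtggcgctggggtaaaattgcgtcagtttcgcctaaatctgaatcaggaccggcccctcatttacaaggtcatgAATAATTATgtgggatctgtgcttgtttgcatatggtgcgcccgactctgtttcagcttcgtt

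The last 3 carry repeated sequence. The site in an intron of Cntnap5c (chr17:57995378-57995527) and the one near Il23r (chr6:67452070-67452219) hold nearly the same bases on different chromosomes. The site near Siah2 (chr3:58469791-58469940) is a short tandem repeat with the highest Gfi1 peak of all members.
Cntnap5c intron: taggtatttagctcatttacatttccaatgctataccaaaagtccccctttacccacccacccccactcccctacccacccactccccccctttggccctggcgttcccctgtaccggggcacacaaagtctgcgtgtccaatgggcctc
Il23r region: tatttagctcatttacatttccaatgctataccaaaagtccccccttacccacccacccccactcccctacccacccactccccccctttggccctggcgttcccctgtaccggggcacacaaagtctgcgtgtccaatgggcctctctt
Siah2 region: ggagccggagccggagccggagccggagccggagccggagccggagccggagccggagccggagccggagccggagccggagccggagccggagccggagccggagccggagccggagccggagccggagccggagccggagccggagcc

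In iGPA the members carried higher Atoh1 and Pou4f3 peaks than the rest of those lists, while their Gfi1 peaks were close to the middle of the Gfi1 list. The median fold enrichment of Atoh1 was 5.82 in the 508 sites, against 4.06 in the 3447 sites with Atoh1 and Pou4f3 but no Gfi1 and 3.45 in the 21172 sites with Atoh1 only. For Pou4f3 the medians were 4.95, 4.37 and, in the 14563 sites with Pou4f3 only, 4.08. For Gfi1 the median was 4.62 in the members and 4.40 in the 1484 sites with Gfi1 only. By rank, 41.5% of the members had an Atoh1 peak among the top 10% of its list, 29.9% a Pou4f3 peak and 9.06% a Gfi1 peak. These heights belong to the lists that chose the sites.

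The first question was what the members looked like in the other lines, whose 6 lists the selection did not use. Of the 508 sites, 495 had a peak in at least 1 of these lists. In the retained peaks, Atoh1 and Pou4f3 differed in how often they were there without the other. In iAtoh1, Atoh1 was at 32.9% of the sites (167, 95% exact interval 28.8 to 37.2), with 37.8% for the iG+A line (192, 33.6 to 42.2) and 80.3% for iP+A (408, 76.6 to 83.7). Alone in iPou4f3, Pou4f3 was at 59.6% (303, 55.2 to 63.9), with 65.6% for the iG+P line (333, 61.2 to 69.7) and 72.8% for iP+A (370, 68.7 to 76.7). The contrast between iAtoh1 and iPou4f3 depended on which peaks were retained. The authors left out 35.45% of the called peaks in iAtoh1 and 16.17% in iPou4f3. With all called peaks, which gave 1079 sites, the shares were 63.3% for iAtoh1 and 67.9% for iPou4f3. Among the retained peaks the Atoh1 share was thus highest in the line that also made Pou4f3, while adding Gfi1 to Atoh1 went with a share close to that of Atoh1 alone. The lists differed in length, which bears on every share. For Atoh1 they held 15568 (iAtoh1), 20504 (iG+A) and 18949 (iP+A) retained peaks. For Pou4f3 they held 22433 (iPou4f3), 32632 (iG+P) and 17082 (iP+A). Over all iGPA sites with Atoh1, the iAtoh1 list had a peak at 31.3%, the iG+A list at 41.6% and the Atoh1 list of iP+A at 42%. Over all iGPA sites with Pou4f3, the iPou4f3 list had a peak at 58.7%, the iG+P list at 71.5% and the Pou4f3 list of iP+A at 48.7%. Against this background, the members stood out in both iP+A lists, which share an input, and lay close to it or below in the remaining lists. All intervals on shares of sites cover counting error only, since neighbouring and related sites are not independent.

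**Figure D1:**
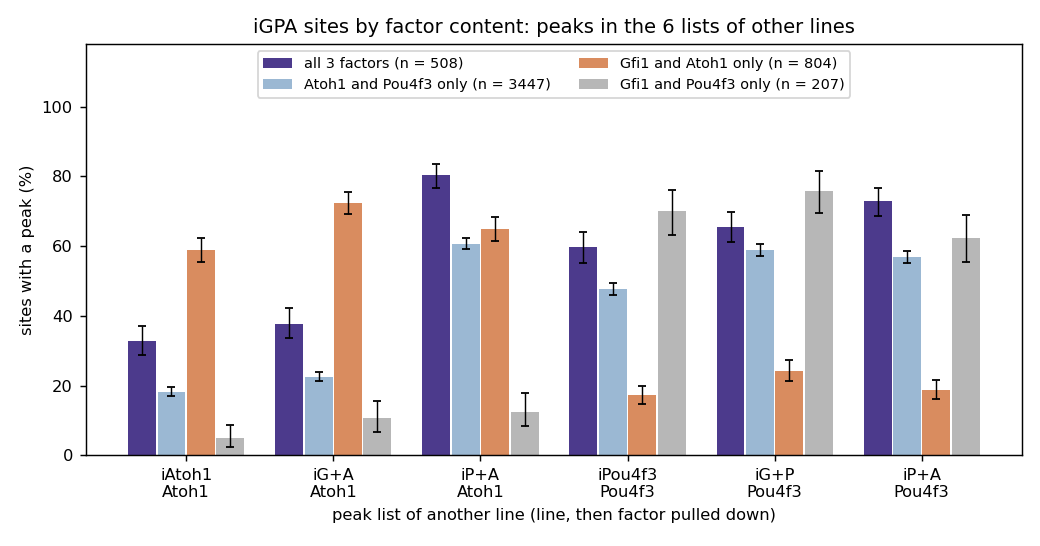
Share of iGPA sites (vertical axis, percent) with a peak in each of the 6 lists of other lines (horizontal axis), for sites with all 3 factors (508), Atoh1 and Pou4f3 only (3447), Gfi1 and Atoh1 only (804) and Gfi1 and Pou4f3 only (207). Error bars are 95% exact intervals. The sites with all 3 factors reach 80.3% in the iP+A Atoh1 list and 32.9% in the iAtoh1 list.

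Beside the members stood the 3447 sites with Atoh1 and Pou4f3 but without a Gfi1 peak, and these had a peak less often in each of the 6 lists. The share with Gfi1 minus the share without was 14.7 percentage points for iAtoh1 (Newcombe 95% interval 10.6 to 19.1), 15.2 for the iG+A line (10.9 to 19.7) and 19.6 for the iP+A Atoh1 list (15.5 to 23.2). The Pou4f3 lists gave 11.9 points for iPou4f3 (7.29 to 16.4), 6.72 for the iG+P line (2.18 to 11.05) and 15.9 for iP+A (11.6 to 20.0). In points, this difference was smaller in 5 of the 6 lists among sites with high peaks by rank, where the shares themselves had also shifted. In the iP+A Atoh1 list, for instance, they were 95.3% with Gfi1 and 87.2% without. Among sites whose Atoh1 and Pou4f3 peaks were both above the 75th percentile of their iGPA lists (170 with Gfi1 and 580 without, a limit set after seeing the data), the difference was 11.1 points in iAtoh1 (5.34 to 17.9), 11.4 in iG+A (5.03 to 18.7), 8.05 in the iP+A Atoh1 list (3.09 to 11.8) and 4.85 in the iP+A Pou4f3 list (0.225 to 8.20). In iG+P it was 3.14 points there, and its interval from -4.06 to 9.33 included 0. In iPou4f3 it was not smaller, at 13.3 points (5.59 to 20.1).

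Where members had peaks in the other lines, these were also high within their own lists. The median member peak stood at the 87.5th percentile of the iAtoh1 list (fold 4.52, list median 3.18), the 86.1st of iG+A (4.67 against 3.20) and the 89.0th of the iP+A Atoh1 list (4.95 against 3.12). For Pou4f3 the percentile was 80.7 of the iPou4f3 list (4.72 against 3.33), 86.2 of the iG+P list (4.49 against 2.96) and 86.8 of the iP+A list (4.42 against 3.17). The median percentiles of the sites without Gfi1 ran from 67.2 to 75.7.

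Read site by site, the 6 lists gave 57 of the 64 possible combinations, but a few held most members. The commonest, at 126 sites (24.8%), had Pou4f3 in iPou4f3, iG+P and iP+A and Atoh1 in iP+A, but no Atoh1 in iAtoh1 or iG+A. The sites in the Ccl1 and Cntnap2 introns and the one assigned to Prok2 are of this kind. A further 44 sites had peaks in all 9 lists, 37 had peaks in both iP+A lists and nowhere else, 35 had the 3 Pou4f3 lists only, and 30 had the 3 Atoh1 lists only. Only 13 sites (2.56%) had no peak in any of the 6 lists, against 9.25% of the sites without Gfi1. Those 13 had median folds in iGPA of 4.40 for Gfi1, 4.31 for Atoh1 and 4.08 for Pou4f3, none was within 1 kb of a start, 9 held an E-box core and 3 a Pou4f element. The highest-ranked of them were in an Ap3b1 intron and upstream of Casz1, Tbl1xr1, Nedd4 and Glrp1.

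**Figure D2:**
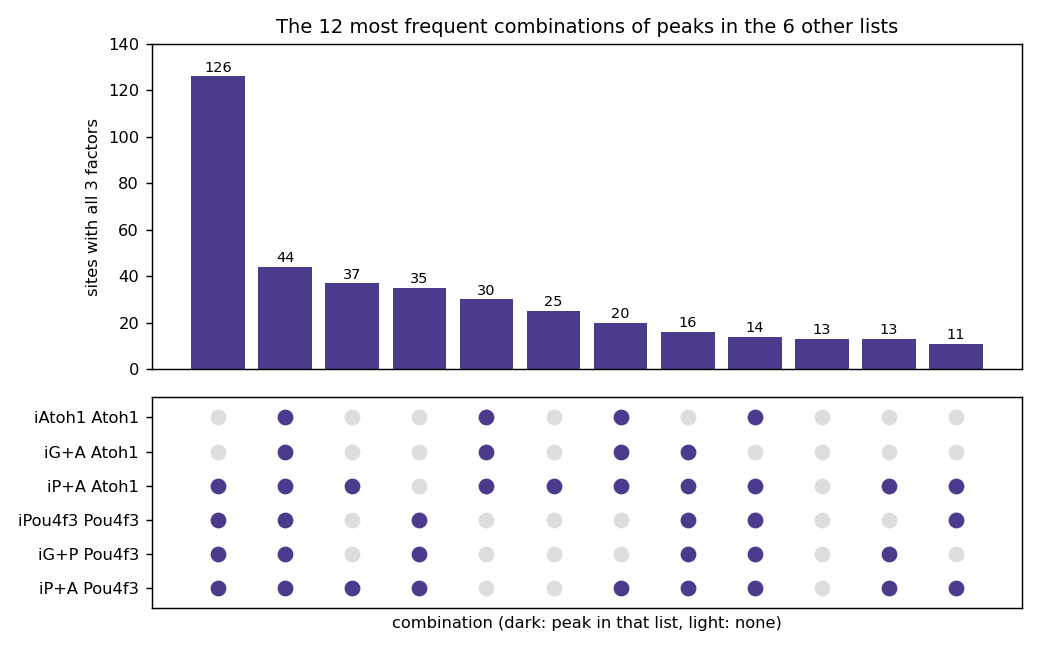
Number of sites with all 3 factors (bars, upper panel) for the 12 most frequent combinations of peaks in the 6 other lists (dots, lower panel, dark where the list has a peak). The leftmost bar, 126 sites, has every Pou4f3 list and only the iP+A list of Atoh1; the last shown ties with another combination at 11 sites.

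To relate the lists to sequence, the members were divided by whether a factor had a retained peak in a line that lacked its partner. The classes therefore depend on which peaks the authors retained. At 207 sites (40.8%) Pou4f3 was found in iPou4f3 or iG+P and Atoh1 in neither iAtoh1 nor iG+A; these are called Pou4f3-autonomous. At 65 sites (12.8%) the reverse held (Atoh1-autonomous), at 159 (31.3%) each factor was found without the other (doubly autonomous), and at 77 (15.2%) neither was (joint). The name joint does not mean that both were found in iP+A. Of the joint members, 37 had both iP+A peaks, 25 that of Atoh1 alone, 2 that of Pou4f3 alone and 13 neither. In the sites without Gfi1 the shares were 46.2%, 8.04%, 19.1% and 26.6%. Counted the other way, Gfi1 was present at 19.4% of the doubly autonomous sites with Atoh1 and Pou4f3 (95% exact interval 16.8 to 22.3), 19.0% of the Atoh1-autonomous (15.0 to 23.6), 11.5% of the Pou4f3-autonomous (10.1 to 13.1) and 7.74% of the joint ones (6.16 to 9.58). Among sites with both peaks above the 75th percentile these shares were 37.6%, 42.9%, 21.2% and 12.7%, in which the Atoh1-autonomous group held only 21 sites.

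The iGPA peak heights followed this division. At Pou4f3-autonomous members the median fold was 9.61 for Pou4f3 and 5.29 for Atoh1. At Atoh1-autonomous members it was 3.64 and 11.6. In the sites without Gfi1 the medians for Pou4f3 and Atoh1 were 6.26 and 3.815 (Pou4f3-autonomous) and 3.20 and 6.28 (Atoh1-autonomous). The doubly autonomous members had 3.93 for Pou4f3 and 4.68 for Atoh1, the latter the lowest Atoh1 median of the classes. The joint members had 4.66 and 6.40. For Gfi1 the median folds were 4.62 (Pou4f3-autonomous), 4.94 (Atoh1-autonomous), 4.18 (doubly autonomous) and 4.84 (joint). Within the Gfi1 list these classes had median percentiles of 59.8, 65.7, 44.9 and 64.9. In iP+A, 75.8% of the Pou4f3-autonomous members had an Atoh1 peak, while 38.5% of the Atoh1-autonomous members had a Pou4f3 peak.

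E-boxes and Pou4f elements were both frequent in the members and the Gfi1 element was rare. In the 250 bp around the middle of the summits, 64.6% of the members held an E-box core of either kind (95% exact interval 60.2 to 68.7), against 28.3% of flanking windows 1000 bp to each side (25.5 to 31.2) and 53.7% of all iGPA sites. CAGCTG was in 38.4% (flanks 10.4%, all iGPA sites 33.5%) and CAGATG in 42.3% (flanks 19.9%, all sites 31.8%). The longer Atoh1 E-box known as AtEAM was in 15.9% (flanks 1.77%, all sites 12.1%). The Pou4f element was in 33.7% (29.6 to 38.0; flanks 9.26%, all sites 27%). The Gfi1 element was in 2.17% (11 sites, 1.09 to 3.84), against 0.493% of the flanks and 0.806% of all sites.

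For the E-box and Pou4f elements the members were close to the sites that lacked Gfi1, with 67.0% and 33.9%. The Gfi1 element was in 0.232% of those (0.100 to 0.457), in 4.35% of the sites with Gfi1 and Atoh1 only (3.05 to 6.00), in 4.83% of those with Gfi1 and Pou4f3 only (2.34 to 8.71) and in 9.91% of the sites with Gfi1 only (8.43 to 11.5). The 11 members with a Gfi1 element had a median Gfi1 fold of 9.02, ranging from 4.18 to 16.7, against 4.62 in the other 497. None was copied and 2 lay within 1 kb of a start. They included the Prok2 site printed above, where the element overlaps a CAGCTG core, and sites whose nearest protein-coding gene was Irx5, a homeobox gene, Dysf, which encodes the membrane repair protein dysferlin, Dll1, Tox3 and Robo2.

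Each element lay closest to the summit of the factor known to bind it. In the 317 members with a core and 1 peak of each factor, the nearest E-box core was a median of 13.5 bp from the Atoh1 summit (95% interval of the median 12.5 to 16.5), 31.5 bp from Pou4f3 (26.5 to 36.5) and 34.5 bp from Gfi1 (29.5 to 40.5). Atoh1 was the nearest summit in 166 of them, Pou4f3 in 73 and Gfi1 in 71. In the 166 members with a Pou4f element the median distances were 17.0 bp to Pou4f3 (13 to 21), 35.0 bp to Atoh1 and 36.0 bp to Gfi1, and Pou4f3 was nearest in 98. In 10 members with a Gfi1 element, Gfi1 was nearest in 7, at a median of 19.0 bp (4 to 50) over the 10. At the 122 members with both an E-box core and a Pou4f element, the centres of the closest pair were a median of 39.0 bp apart (34.5 to 48.5), and 21 pairs were within 20 bp.

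Sequence content differed between the classes, both in the members and in the sites without Gfi1. The Pou4f element was in 54.1% of the Pou4f3-autonomous members (95% exact interval 47.1 to 61.0), 31.2% of the joint (21.1 to 42.7), 17.6% of the doubly autonomous (12.0 to 24.4) and 10.8% of the Atoh1-autonomous (4.44 to 20.9). An E-box core was in 90.9% of the joint members (82.2 to 96.3), 80% of the Atoh1-autonomous (68.2 to 88.9), 62.3% of the Pou4f3-autonomous (55.3 to 68.9) and 48.4% of the doubly autonomous (40.4 to 56.5). AtEAM was most frequent in the Atoh1-autonomous, at 36.9% (25.3 to 49.8), and was in 10.1% of the Pou4f3-autonomous. Neither an E-box core nor a Pou4f element was found in 44.7% of the doubly autonomous members (36.8 to 52.7) and in 7.79% of the joint (2.91 to 16.2). The sites without Gfi1 had the same class order for the Pou4f element and the E-box core. Their Pou4f shares were 47.6% (Pou4f3-autonomous), 30.8% (joint), 15.9% (doubly autonomous) and 8.66% (Atoh1-autonomous). Their E-box shares were 83.55% (joint), 71.5% (Atoh1-autonomous), 62.8% (Pou4f3-autonomous) and 52.2% (doubly autonomous). AtEAM differed, with 18.8% in their Atoh1-autonomous and 20.0% in their joint sites.

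**Figure D3:**
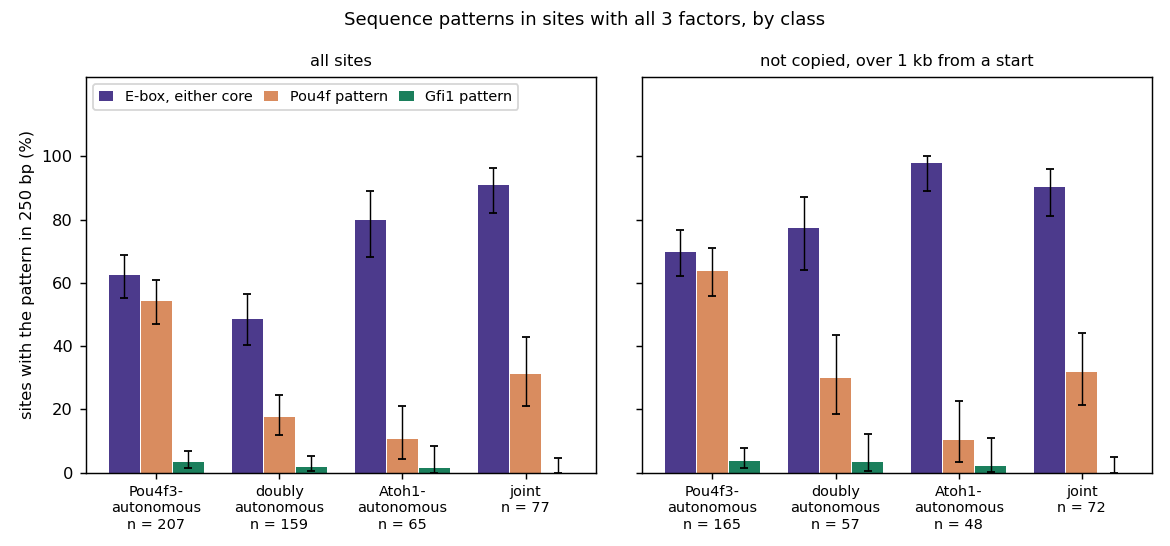
Share of members (vertical axis, percent) with an E-box core, a Pou4f element or a Gfi1 element in 250 bp, by class, with 95% exact intervals. The left panel shows all members and the right panel the 342 whose sequence is not copied elsewhere and that lie over 1 kb from a start. The Pou4f bar is highest in the Pou4f3-autonomous class, 54.1% on the left and 63.6% on the right.

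Copied sequence moved with the doubly autonomous class. A member was counted as copied where the 31-base words of its 250 bp occurred a median of 2 or more times in the genome, which held for 90 of 508 (17.7%, 14.5 to 21.3) and for 11.1% of the sites without Gfi1 (10.1 to 12.2). Of the doubly autonomous members 40.3% were copied (64 sites, 32.6 to 48.3), against 18.5% of the Atoh1-autonomous, 5.80% of the Pou4f3-autonomous and 2.60% of the joint. The sites without Gfi1 had shares of 30.5%, 22.7%, 4.71% and 4.79% in the same classes. In all, 31 members fell into 7 families that shared at least 20 such words. The largest family had 14 members on 9 chromosomes, among them the Cntnap5c and Il23r sites printed above, whose words occurred a median of 3284 and 3326 times in the genome. Of these 14, 13 were doubly autonomous and 7 had peaks in all 9 lists. A second family held the 6 members on chromosome Y. Of the 44 members with peaks in all 9 lists, 22 were copied, 10 lay within 1 kb of a start and 15 were neither. With copied sequence left out (418 members), the Atoh1 shares were 24.6% in iAtoh1, 33.0% in iG+A and 80.6% in iP+A, and the doubly autonomous class fell from 31.3% to 22.7% of the members. The iG+P share then exceeded that of the sites without Gfi1 by 4.14 points, with an interval from -0.908 to 8.99 that included 0. The part of copied sequence in the peaks was not tested.

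In the 342 members that were neither copied nor within 1 kb of a start, the Pou4f element was again most frequent in the Pou4f3-autonomous class, while the classes lay closer together in the E-box core. The Pou4f element was in 63.6% of the Pou4f3-autonomous (55.8 to 71.0), 31.9% of the joint, 29.8% of the doubly autonomous and 10.4% of the Atoh1-autonomous (3.47 to 22.7). An E-box core was in 97.9% of the Atoh1-autonomous (88.9 to 99.9), 90.3% of the joint, 77.2% of the doubly autonomous (64.2 to 87.3) and 69.7% of the Pou4f3-autonomous (62.1 to 76.6). The 2347 such sites without Gfi1 showed the same class orders. Their Pou4f shares ran from 55.1% (Pou4f3-autonomous) to 12.4% (Atoh1-autonomous), and their E-box shares from 88.3% (Atoh1-autonomous) to 69.3% (Pou4f3-autonomous).

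The order of the summits showed no fixed arrangement. In 488 members there was exactly 1 peak of each factor, while 18 members had 2 Atoh1 peaks, 1 had 2 Pou4f3 peaks and 1 had 2 Gfi1 peaks. Without 13 ties, Pou4f3 was in the middle at 36.4% of 475 sites (173, 95% exact interval 32.1 to 40.9), Atoh1 at 36.2% (172, 31.9 to 40.7) and Gfi1 at 27.4% (130, 23.4 to 31.6). Where the outermost summits were at least 50 bp apart the shares were 37.2%, 35.2% and 27.6%. Atoh1 and Pou4f3 were the closest pair at 209 of 482 untied sites, Gfi1 and Pou4f3 at 150 and Gfi1 and Atoh1 at 123.

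The 3 summits lay within 50 bp of each other at 41.8% of the 488 sites, within 100 bp at 70.3% and within 200 bp at 88.1%, with a median span of 62.0 bp. The median distance was 29.0 bp between Atoh1 and Pou4f3 (95% interval of the median 25 to 35), 36.0 bp between Gfi1 and Pou4f3 (33 to 41) and 42.5 bp between Gfi1 and Atoh1 (38 to 48). In sites with only the given pair the medians were 34.0, 49.0 and 46.0 bp. In the Atoh1-autonomous members Gfi1 lay a median of 23.5 bp from Atoh1 (18 to 35), and in the doubly autonomous 51.0 bp (41 to 62). The joining rule bounds these distances. The 29 members whose widest step between neighbouring summits was 251 to 299 bp had median folds of 4.64 for Gfi1, 4.80 for Atoh1 and 4.08 for Pou4f3. The 18 sites that a limit of 350 bp would have added, with steps of 302 to 348 bp, had 4.29, 3.38 and 3.42.

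**Figure D4:**
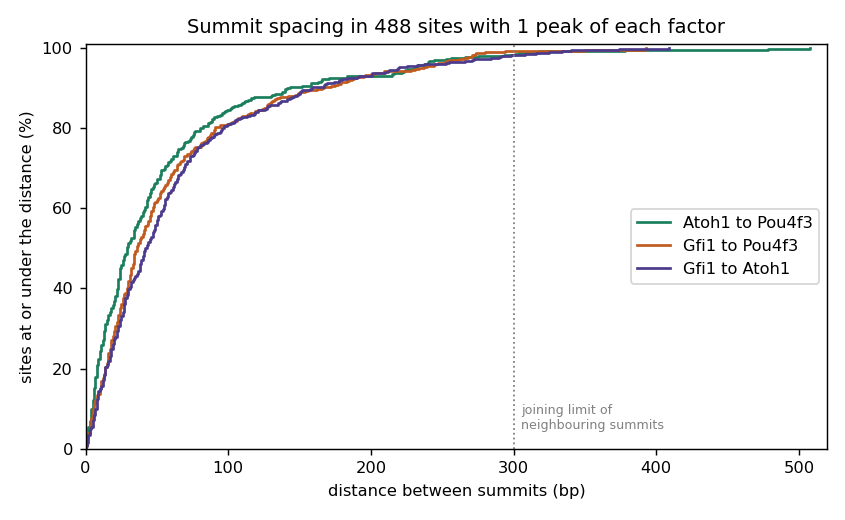
Cumulative share of the 488 members with 1 peak of each factor (vertical axis, percent) against the distance between summits of a pair of factors (horizontal axis, bp). The Atoh1 to Pou4f3 curve rises first, with a median of 29.0 bp, and the dotted line marks the joining limit of neighbouring summits.

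Most members were far from promoters. The middle of the site was intergenic at 246 members (48.4%), intronic at 214 (42.1%), in an untranslated exon at 33, a noncoding exon at 9 and a coding exon at 6. The median distance to the nearest annotated transcript start was 17174.5 bp. Within 1 kb of a start lay 17.5% of the members (14.3 to 21.1), against 21.9% of all iGPA sites, 21.9% of the sites without Gfi1 (20.6 to 23.3), 32.1% of those with Gfi1 and Atoh1 only (28.9 to 35.4) and 44.0% of those with Gfi1 and Pou4f3 only (37.1 to 51.0). By class the promoter share was 30.8% in the doubly autonomous members, 15.5% in the Pou4f3-autonomous, 7.69% in the Atoh1-autonomous and 3.90% in the joint. In the same classes of the sites without Gfi1 it was 46.3%, 18.6%, 25.6% and 9.15%. The median GC content was 48.8% in the members and 48.0% in the sites without Gfi1.

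At 155 members the nearest start belonged to a small RNA, pseudogene or other noncoding transcript. With protein-coding starts and that of Gfi1 alone, 468 genes were nearest to a member, 2.1% of 22239 such genes. Of these, 29 had 2 members and 5 had 3 or more. Rtn4rl2, a Nogo receptor relative on chromosome 2, had 3 members, 1 in its own intron and 2 in intergenic DNA, 16536 and 18167 bp downstream of its start. In the intron Pou4f3 was at 22.7 and Atoh1 at 14.0 in iGPA. Nuf2, which encodes a kinetochore protein, was nearest to 3 members on chromosome 1, each over 50 kb from its start. The other genes of this kind were Gm13152 (4 members) and Gm13225 (3) on chromosome 4 and Gm3750 (3) on chromosome X. With all starts, the small RNA names U6 (16 members), SNORA17 (10), 7SK (5) and U1 (5) were the most frequent, each of which stands for many loci.

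The members were ranked by the lowest of their 3 iGPA percentiles. The 8 highest-ranked outside tandem repeats had high peaks of all 3 factors in iGPA but differed across the other lists. The site in the Ccl1 intron, a chemokine gene, had folds of 14.1 for Gfi1, 14.8 for Atoh1 and 17.0 for Pou4f3. Atoh1 reached 7.10 in iP+A and had no peak in iAtoh1 or iG+A, while Pou4f3 stayed between 7.81 and 8.32 in the 3 other lines that made it. The Khdrbs1 intron, in a gene for an RNA-binding protein, showed the mirror image, with an Atoh1 fold of 3.18 (iAtoh1), 3.87 (iG+A) and 13.9 (iP+A), and outside iGPA a Pou4f3 peak only in iP+A, at 5.66. The Cntnap2 intron, in a gene for a neuronal adhesion protein, had Atoh1 and Pou4f3 folds of 30.9 and 30.1 in iGPA with a Gfi1 fold of 9.90. At the Nuf2 region site Atoh1 (6.99) and Pou4f3 (4.87) were found in iP+A and in no other list outside iGPA, and the site assigned to Gm9866 on chromosome 12 behaved alike, with 9.47 and 4.08. The sites of the Cntnap5c intron and of Adrbk2, a receptor kinase gene, had peaks in all 9 lists. So did, lower in rank, those of Il23r, of an intron of Srrm3 and, 153 bp upstream of a start, of the histone methyltransferase gene Mll1. At Mll1 the 9 folds stayed between 6.28 and 9.52.

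**Figure D5:**
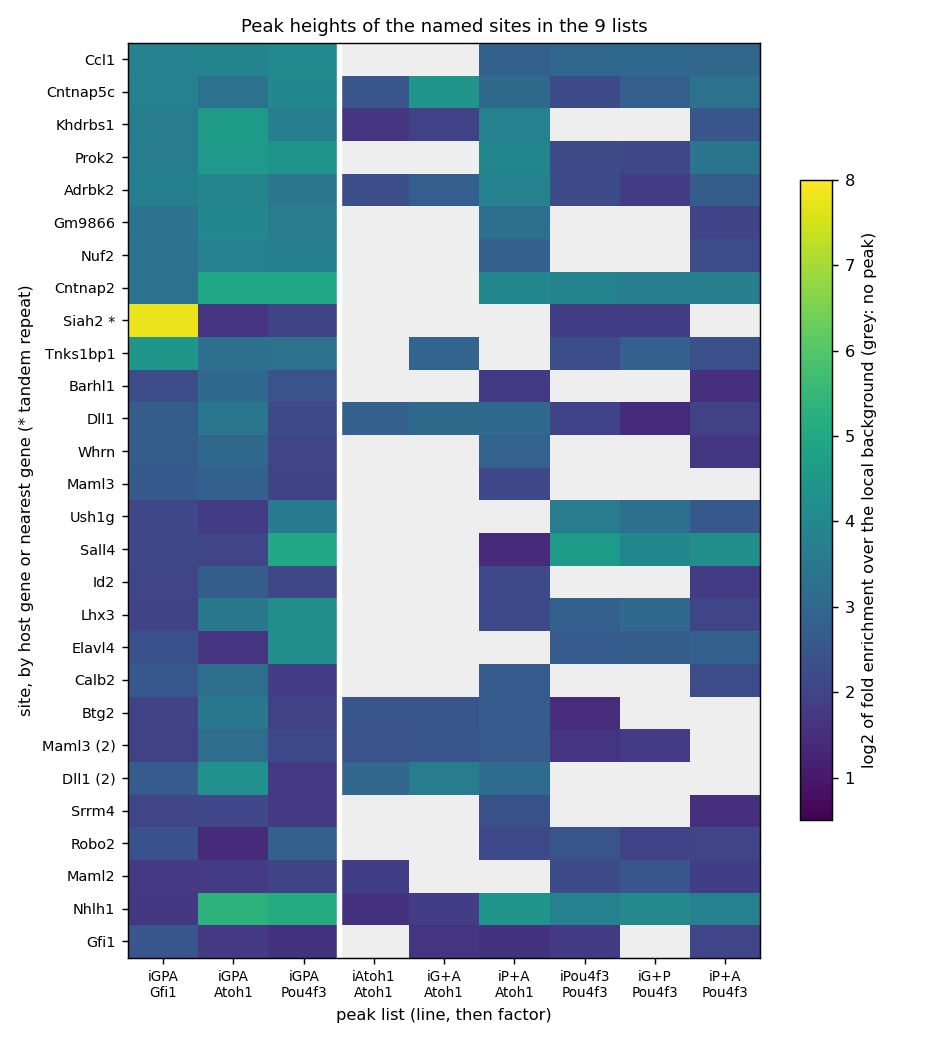
Fold enrichment on a log2 colour scale for the named members (rows, by host gene or nearest gene, asterisk for tandem repeats) in the 9 peak lists (columns), grey where a list has no peak. The Siah2 repeat site stands out in the Gfi1 column, and Ccl1, Prok2 and Cntnap2 lack Atoh1 in iAtoh1 and iG+A.

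The highest Gfi1 peak was of a different kind. The Siah2 repeat had a Gfi1 fold of 219.7 beside 3.08 for Atoh1 and 4.08 for Pou4f3. In the other lines it had only Pou4f3, at 3.69 in iPou4f3 and 3.61 in iG+P. The Tnks1bp1 promoter had 22.2 for Gfi1, 9.60 for Atoh1 and 10.1 for Pou4f3. In all, 13 members (2.56%) were in a short tandem repeat, against 0.754% of the sites without Gfi1 and 9.43% of the sites with Gfi1 only.

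Genes of the hair cell, Notch and neuronal lists were nearest to a few members each, and lists of Hox genes and blood regulators to none. Among hair cell regulators 5 of 28 were nearest to a member by protein-coding starts (17.9%), among genes of hair cell structure and function 3 of 38 (7.89%), in the Notch pathway 3 of 27 (11.1%), among proneural and related factors 2 of 24 (8.33%) and among neuronal genes 3 of 39 (7.69%). Pluripotency regulators gave 1 of 19, cell cycle exit genes 1 of 20, Hox genes 0 of 38 and blood regulators 0 of 20. Without the genes that the cassettes carry, 3 of 25 hair cell regulators (12%) were nearest to a member. Together 17 of 248 listed genes (6.85%) were nearest to a member, against the 2.1% over all genes, and 15 of 245 (6.12%) without the genes of the cassettes. The lists were chosen with earlier results of these data known, and their counts are descriptions.

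Of the regulators, the Barhl1 site (homeobox factor) and the Lhx3 site (LIM homeobox factor) both lay in intergenic DNA. Barhl1 had iGPA folds of 4.84 for Gfi1, 8.37 for Atoh1 and 5.39 for Pou4f3 and elsewhere only iP+A peaks, at 3.44 and 2.83. Lhx3 had 4.12, 11.4 and 18.6. Outside iGPA its Pou4f3 fold ran from 4.19 to 8.43 over the 3 other lines with Pou4f3, and Atoh1 had a peak only in iP+A, at 4.52. At the promoter of Nhlh1, a helix-loop-helix factor, the Atoh1 fold was 3.05 (iAtoh1), 3.61 (iG+A), 21.4 (iP+A) and 40.9 (iGPA), while that of Pou4f3 was 13.9 in iPou4f3 and 34.8 in iGPA. The Gfi1 fold there was 3.27. The member at Gfi1 itself lay in an exon of the gene, 2356 bp from its start, with folds of 5.72, 3.38 and 3.04 for Gfi1, Atoh1 and Pou4f3. Atoh1 (3.01) and Pou4f3 (4.19) had peaks there in iP+A, and Pou4f3 (3.45) in iPou4f3, lines whose cassettes hold no Gfi1. In the 3 lines whose cassette holds Gfi1, reads of the cassette cannot be told apart from reads of the gene's own exons. The same limit holds for the member in a coding exon of Pou4f3, whose values are not given.

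Of the genes for hair bundles and calcium handling, the Whrn intron (whirlin, a stereocilia scaffold) had Atoh1 at 8.00 in iGPA and 7.32 in iP+A, Pou4f3 at 4.22 and 3.28, Gfi1 at 6.60, and no peak in the other lines. The site assigned to Calb2, which encodes calretinin, lay 32401 bp downstream of its start. Atoh1 was there at 9.23 in iGPA and 6.24 in iP+A and Pou4f3 at 3.50 and 4.87, again without peaks in the other lines. The site nearest to Ush1g, the gene of the scaffold protein Sans, lay in an intron of its neighbour Otop2 and differed. There the Pou4f3 fold was 12.6 (iPou4f3), 9.41 (iG+P), 5.89 (iP+A) and 11.8 (iGPA), while Atoh1 was found only in iGPA, at 3.57.

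Dll1, which encodes a Notch ligand, was the nearest gene of 2 members. At the closer one the Atoh1 fold was 6.96 (iAtoh1), 8.54 (iG+A), 8.39 (iP+A) and 10.8 (iGPA), and the Gfi1 fold 6.60. At the farther one, printed above, the Atoh1 fold was 7.94, 12.6, 8.69 and 19.8 in the same lines, and Pou4f3 had a peak only in iGPA, at 3.35. The promoter of Maml3, a Notch coactivator, had Atoh1 from 5.38 to 8.98 in the 4 Atoh1 lists, and a second Maml3 site upstream had Atoh1 only in iP+A (4.30) and iGPA (7.14). At Maml2, its relative, where the sequence was copied 7 times in the genome, Atoh1 had peaks only in iAtoh1 (3.74) and iGPA (3.59) and Pou4f3 in all 4 of its lists, from 3.71 to 5.64.

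The other listed genes fell on both sides. At the start of Sall4, a pluripotency regulator, Pou4f3 was high in every line, from 15.4 to 32.2, with Atoh1 at 2.69 in iP+A and 4.18 in iGPA. Upstream of Id2, whose product blocks helix-loop-helix dimers, and at Srrm4, a neuronal splicing regulator, both factors were found in iP+A and iGPA only. The site assigned to Elavl4, a neuronal RNA-binding protein gene, lay 93357 bp downstream of its start. Pou4f3 was there at 6.42 in iPou4f3 and 18.6 in iGPA and Atoh1 at 3.08 in iGPA alone. At 15690 bp downstream of the start of Btg2, a gene that restrains cell division, Atoh1 had peaks in all 4 of its lists, from 5.61 to 11.4. Pou4f3 had a peak there outside iGPA only in iPou4f3, at 2.73. Far upstream of Robo2, an axon guidance receptor gene, Pou4f3 had folds from 4.05 to 7.14 in its 4 lists, and Atoh1 was at 4.41 in iP+A and 2.71 in iGPA.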

How the data were processed

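ChIP-seq peak lists of 6 induced embryonic stem cell lines were analysed. The authors trimmed reads with Trimmomatic, aligned them to mm9 with Bowtie2, removed duplicates with Picard, kept a mapping quality of at least 40, removed blacklisted regions and called peaks with MACS2 on merged libraries against merged inputs at p 0.05. The fold enrichment, the -log10 p and the peak score were deposited by the authors as MACS2 wrote them, and the score was not used. The authors kept a part of each list (3012 of 3838 peaks for Gfi1, 26231 of 31697 for Atoh1 and 18751 of 21832 for Pou4f3 in iGPA), and the criterion is not given in the sources used here. The lowest -log10 q among the kept peaks of the 9 lists was 1.304.

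Windows of 300 bp were joined at 1 bp. A peak of another list counted where its window overlapped a site. Positions were read against the NCBIM37 annotation and sequence, with 250 bp around the mean of the summits searched for elements. A tandem repeat is a summit whose surrounding 100 bp repeat with a unit of at most 12 bp at 80% of positions. Intervals are exact (Clopper-Pearson), or Newcombe for differences, at 95%, and cover counting error only. The members, gene lists and classes were chosen with earlier results of these data known. Sites outside chromosome 18 are named by 5 rules, which are the 8 with the highest score, the 3 highest Gfi1 peaks, up to 5 with peaks in every list and up to 5 with none in the other lists, those nearest to listed genes, and genes with at least 3 members. Of the 3 highest Gfi1 peaks, 1 is not reported here, and genes with at least 3 members are given by their counts. Members with a Gfi1 element were named after their values were seen. Python 3.11.15, numpy 2.4.6, scipy 1.17.1, pysam 0.24.0 and matplotlib 3.10.9 were used, and the joining, search and copy counts were tested on simulated data. Alternatives were other windows, peak sets, distances and left-out sites.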

Additional observations from a re-analysis of the deposited data

Results flagged for a closer look

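The peaks that MACS called in iGPA but the authors did not keep reached some sites with 2 factors. Of the 804 sites with Gfi1 and Atoh1 only, 88 (10.95%, 95% exact interval 8.87 to 13.3) overlapped 1 of the 3081 Pou4f3 peaks that were not kept. Of the 207 sites with Gfi1 and Pou4f3 only, 13 (6.28%, 3.39 to 10.5) overlapped 1 of the 5466 Atoh1 peaks that were not kept. Of the 3447 sites with Atoh1 and Pou4f3 only, 10 (0.290%, 0.139 to 0.533) overlapped 1 of the 826 such Gfi1 peaks. At sites with 1 factor the Pou4f3 peaks that were not kept overlapped 2.59% of those with Atoh1 and 3.50% of those with Gfi1. For Atoh1 the shares were 4.04% (Gfi1) and 0.735% (Pou4f3), and for Gfi1 0.222% (Atoh1) and 0.0343% (Pou4f3). No test was run on these shares.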

How the results depend on the processing

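No paired analysis was possible because the peak lists were made on merged libraries (1 library for Gfi1), which also leaves no replicate to leave out. Of 163 values under other settings, 100 stayed within the interval of the reported one (within 1.5 times for the count of sites) and 63 moved, while none of the 420 values with 1 of 21 chromosomes left out did. Settings that keep nearly all sites could hardly move a value, so their results say little about stability. These are leaving out 1 chromosome, autosomes only (20 values, all the same) and no tandem repeats (20, all the same). With a -log10 p of at least 10, 16 values moved and 4 stayed, and with all called peaks 13 moved and 7 stayed. The cause was not tested for any value that moved. With windows of 100 bp the iG+A share was 31.2%, the median distances were 33.0 bp (Gfi1 to Atoh1), 31 bp (Gfi1 to Pou4f3) and 23.0 bp (Atoh1 to Pou4f3), and 12.5% of sites were near a start. With windows of 1000 bp the shares were 41.4% for iAtoh1, 49.6% for iG+A, 67.5% for iPou4f3 and 72.3% for iG+P, with 38.0 bp from Atoh1 to Pou4f3, 24.5% near a start, 54.7% with an E-box core (CAGCTG 32.5%, CAGATG 35.1%, AtEAM 11.9%) and 27.1% with a Pou4f element.

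With all called peaks there were 1079 sites, with shares of 63.3% (iAtoh1), 67.8% (iG+A), 84.7% (Atoh1 of iP+A), 67.9% (iPou4f3), 77.6% (iG+P) and 81.7% (Pou4f3 of iP+A), 37.0 bp from Gfi1 to Atoh1, 42.6% with an E-box core (CAGCTG 23.6%, CAGATG 27.1%, AtEAM 8.62%) and 18.6% with a Pou4f element. With peaks of a -log10 p of at least 10 there were 172 sites, with 23.8% for iAtoh1 and for iG+A and 55.2% for iG+P, Atoh1 in the middle at 41.4% and Pou4f3 at 31.5%, 30.0 bp from Gfi1 to Atoh1 and to Pou4f3 and 22.5 bp from Atoh1 to Pou4f3, 5.81% near a start, 77.9% with an E-box core (CAGCTG 48.8%, CAGATG 51.2%, AtEAM 20.3%), 43.0% with a Pou4f and 4.07% with a Gfi1 element. Within 5 kb of a start lay 28.5%. The Pou4f element without a mismatch was in 3.74%. In 100 bp around the middle 48.0% held an E-box core (CAGCTG 25.8%, CAGATG 27.4%, AtEAM 10.0%) and 23.8% a Pou4f element.

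Alternatives chosen after seeing the data moved further values. With both peaks above the 75th percentile the shares were 18.8% (iAtoh1), 22.9% (iG+A), 95.3% (Atoh1 of iP+A), 78.8% (iPou4f3), 81.8% (iG+P) and 95.9% (Pou4f3 of iP+A). Without copied sequence they were 24.6% (iAtoh1) and 33.0% (iG+A), with an E-box core in 72.2% (CAGCTG 44.0%) and a Pou4f element in 38.8%. The depth of the libraries is unknown here, so the lists of different lines may reach different depths, and Gfi1 rests on 1 library.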
